A study of Homo sapiens with 12 samples.

Results

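The aryl hydrocarbon receptor pathway genes examined here are 8 of the 26364 gene symbols in the count files: the receptor *AHR*, its partner *ARNT*, the repressor *AHRR*, the cytochrome P450 genes *CYP1A1*, *CYP1A2* and *CYP1B1*, and the target genes *TIPARP* and *GPR15*. They were picked by name, with their response to ICRF193 already known, so their ICRF193 values are described without a test. RNA-seq was done on 12 libraries of total RNA from HCT116, a human colon cancer cell line, as WT cells or as the p65-deficient clone 32. Cells received no inhibitor, camptothecin (CPT), a poison of topoisomerase TOP1, or ICRF193, a catalytic inhibitor of TOP2, each at 5 µM for 2 h. The study's methods name both untreated and vehicle-treated cells, and the labels do not say which the libraries without inhibitor were. TNFα at 20 ng/mL was left out (0 h) or added on top for 1 h, which gives 12 conditions with 1 library each and no replicates. The study describes the 2 h as a treatment ahead of TNFα, so exposure to the inhibitor may be longer in libraries with TNFα.

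The labels name the 6 p65-deficient libraries shRNA p65, whereas the study's methods describe a CRISPR-Cas9 clone. All 6 come from that clone, so that loss of p65 and any other property of the clone cannot be told apart. *RELA*, which encodes p65, had 548 to 673 normalized counts (reads over the size factor that DESeq2 gave the library) in the clone and 694 to 909 in WT cells. Between 8101212 and 22051046 reads were counted per library. The libraries of the clone with ICRF193 at 0 h and with TNFα at 1 h had 8101212 to 8755001 reads, and these 4 libraries are called shallow. Depth thus moves with TNFα in the clone's pairs of no inhibitor and of CPT. It also moves with ICRF193 in the clone's pair at 0 h, with 20524958 reads without inhibitor and 8755001 with ICRF193. The labelled epithelial identity was checked with 7 marker genes, and *EPCAM*, *KRT8*, *KRT18*, *KRT19*, *CDH1* and *CDX2* had at least 107 reads in every library, while *VIL1* had 0 to 4.

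AHR is a transcription factor of the bHLH-PAS family that is switched on by ligands, among them dioxins, plant indoles and tryptophan metabolites. Without a ligand it rests in the cytosol in a complex with the chaperone HSP90 and its partner p23. With one it enters the nucleus, pairs with ARNT and binds DNA at response elements with the core GCGTG. Its classical targets encode the CYP1 monooxygenases, which oxidise many of the ligands, and the feedback inhibitors AHRR, which competes for ARNT, and TIPARP, a mono-ADP-ribosyltransferase that acts on AHR. In the intestine the pathway is known as a sensor of dietary and microbial compounds. No AHR ligand is named among the treatments.

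In hg19, the build of the files, *CYP1A1* (chr15:75011883-75017877, minus strand) and *CYP1A2* (chr15:75041184-75048941, plus strand) lie head to head with 23307 bp between them. *AHR* is at chr7:17338276-17385775 and *AHRR* at chr5:304291-438405, both on the plus strand. *ARNT* is at chr1:150782181-150849244 and *CYP1B1* at chr2:38294746-38303323, both on the minus strand. *TIPARP* (chr3:156392205-156424557) and *GPR15* (chr3:98250743-98251994, a gene of 1 exon) are both on the plus strand. Of the 8 genes, 2 share annotated exon with another gene. *TIPARP* shares 847 bp with the antisense gene *TIPARP-AS1* (4 to 29 reads per library), and *AHRR* shares 45 bp with *PDCD6* on the same strand (801 to 2049 reads). The counting did not use strand, so that reads from the shared stretch of *TIPARP* and its antisense partner cannot be assigned.

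The promoters show how often the core of the response element stands close to these genes. RefSeq windows on GRCh38.p14, from 250 bases before to 50 bases after a start site, were available for 7 of the 8 genes (10 windows), and not for *CYP1B1*. GCGTG was found on either strand in 5 of the 10 windows, belonging to *AHR*, *AHRR*, *CYP1A1* and *TIPARP*, and in 36.5% of all 35116 windows. The longer form TNGCGTG, which contains that core, was found in 1 window of *AHRR* and in 5.51% of all windows. Neither form was found in the windows of *ARNT*, *CYP1A2* and *GPR15*. The 250 bases before the start site are printed for *CYP1A1*, the first windows of *AHRR* and *TIPARP*, and *GPR15*, the genes highest with ICRF193 that have a window, with GCGTG or its reverse complement CACGC in capitals.
CYP1A1, chr15:74725529-74725778, minus strand: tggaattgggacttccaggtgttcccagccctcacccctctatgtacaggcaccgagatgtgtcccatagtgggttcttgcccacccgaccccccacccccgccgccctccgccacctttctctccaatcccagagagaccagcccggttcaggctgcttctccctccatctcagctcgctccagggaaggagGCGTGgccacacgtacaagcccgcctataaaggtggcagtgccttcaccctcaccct
AHRR, chr5:321464-321713, plus strand: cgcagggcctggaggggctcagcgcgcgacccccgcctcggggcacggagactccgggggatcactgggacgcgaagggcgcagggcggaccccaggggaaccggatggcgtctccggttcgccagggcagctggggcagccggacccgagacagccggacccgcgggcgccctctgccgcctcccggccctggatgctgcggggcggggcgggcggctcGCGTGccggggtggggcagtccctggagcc
TIPARP, chr3:156674340-156674589, plus strand: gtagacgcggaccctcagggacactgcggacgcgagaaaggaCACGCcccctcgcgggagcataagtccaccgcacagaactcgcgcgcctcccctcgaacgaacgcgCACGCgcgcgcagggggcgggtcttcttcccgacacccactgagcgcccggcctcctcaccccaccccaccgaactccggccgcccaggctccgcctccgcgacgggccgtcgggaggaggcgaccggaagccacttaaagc
GPR15, chr3:98531728-98531977, plus strand: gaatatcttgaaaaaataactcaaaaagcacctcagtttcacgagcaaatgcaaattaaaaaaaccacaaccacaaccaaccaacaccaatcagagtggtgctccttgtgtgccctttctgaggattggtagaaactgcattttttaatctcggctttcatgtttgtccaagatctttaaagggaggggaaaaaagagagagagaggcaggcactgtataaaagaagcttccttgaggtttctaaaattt
The *CYP1A1* core began at position -57 from the start site, and the *AHRR* core at -30, inside the TNGCGTG that began at -32. The *TIPARP* window held its 2 cores on the opposite strand, at -208 and -142. These matches are descriptions of the letters in a short window. Enhancers further upstream, where the best known response elements of *CYP1A1* lie, are outside it.

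With ICRF193, *CYP1A1*, *CYP1B1*, *AHRR*, *TIPARP* and *GPR15* each had higher normalized counts in all 4 libraries than in any of the 4 libraries without inhibitor, while *AHR* and *ARNT* overlapped with them. Such a separation upwards occurred for 1.08% of the 13631 genes tested, and 0.587% of them were raised at an adjusted p under 0.05 (2.17% in either direction). The genes were chosen on this contrast, so nothing is read from these shares. CPT lowered 4 of the 7 genes that passed the filter on low counts, *TIPARP*, *GPR15*, *AHRR* and *AHR*, and raised 0, at an adjusted p under 0.05 (edgeR quasi-likelihood test over 4 pairs of libraries alike in cell line and TNFα). Over all 13993 genes tested, 25.1% were lowered, 23.2% raised and 48.3% called in either direction. The same 4 genes lay below the libraries without inhibitor in all 4 CPT libraries, a separation found for 20.2% of all genes. An effect of TNFα was called for 0 of 7 genes in either cell line, against 0.642% of all genes in WT cells and 0.498% in the clone. Between the clone and WT cells 2 of 7 genes were called, *CYP1A1* and *ARNT*, against 32.1% of all genes. Neither was called in the 2 pairs without a shallow library. There the *CYP1A1* value was higher, the *ARNT* value lower, and fewer of all genes were called. Less RNA per cell and fewer cells that express a gene cannot be told apart in these bulk libraries. Fold changes are relative to the other RNA in a library, so a change in total RNA per cell was not measured. The CPT and ICRF193 comparisons share the 4 libraries without inhibitor.

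**Figure D1:**
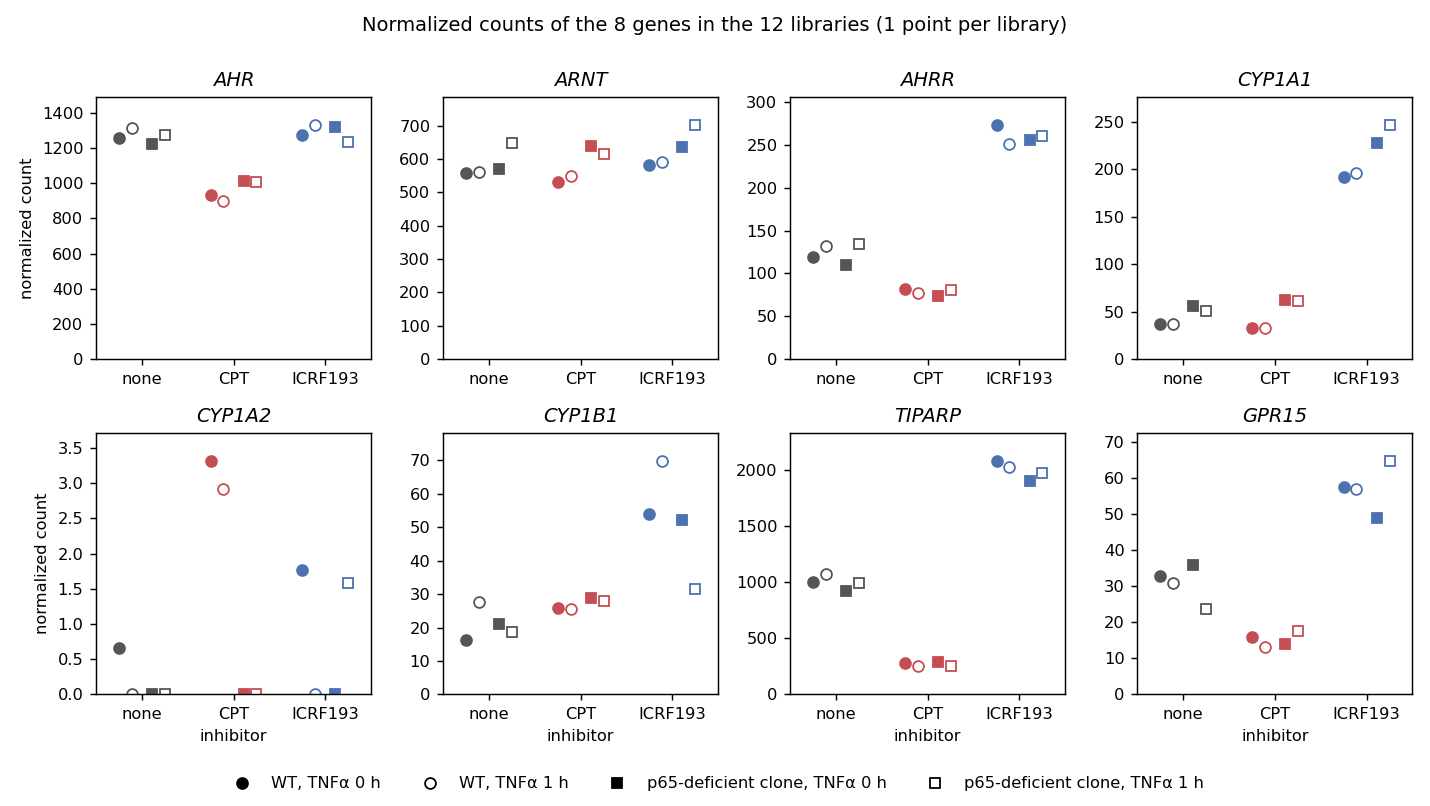
Normalized count (linear axis from 0) of each gene in the 12 libraries, grouped by inhibitor, with circles for WT cells, squares for the p65-deficient clone, and filled or open symbols for 0 h or 1 h of TNFα. *CYP1A1* lay between 192 and 246 with ICRF193 and between 32.8 and 62.4 otherwise, *TIPARP* fell from at least 916 to at most 285 with CPT, and the *CYP1A2* panel rests on 12 reads in all.

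*AHR*, the receptor itself, had 1258, 1317, 1223 and 1275 normalized counts without inhibitor, in WT cells at 0 h and 1 h of TNFα and in the clone at 0 h and 1 h (the order used throughout). With CPT it had 935, 897, 1012 and 1008. With ICRF193 it had 1274, 1330, 1322 and 1235. All CPT libraries were the lowest, and the ICRF193 libraries overlapped with those without inhibitor. The fitted CPT effect was a log2 fold change of -0.41 (SE 0.06, edgeR adjusted p = 0.00016), or 0.754-fold. The ICRF193 pair ratios, on the log2 scale, ran from -0.05 to 0.11, so that the receptor's mRNA differed by at most 1.08-fold in any pair. The clone against WT cells gave a log2 fold change of 0.03 (SE 0.04, edgeR adjusted p = 0.64), which was not called.

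*ARNT* encodes the partner that AHR shares with the hypoxia-inducible factors. Without inhibitor it had 558, 561, 571 and 649 normalized counts. With CPT it had 530, 549, 638 and 615, and with ICRF193 582, 590, 636 and 701. The ranges of the 3 treatments overlapped, and in each of the 6 pairs of libraries alike in inhibitor and TNFα the clone was above WT cells. The CPT effect was a log2 fold change of -0.01 (SE 0.07, edgeR adjusted p = 0.92). With ICRF193 all 4 pair ratios lay above 0, at 0.06 to 0.16 on the log2 scale.

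*CYP1A1*, which encodes the monooxygenase most used as a readout of AHR activity, had 36.8, 37.3, 55.4 and 51.0 normalized counts without inhibitor. With CPT it had 33.2, 32.8, 62.4 and 61.1. With ICRF193 it had 192, 196, 227 and 246. It had 30 to 79 reads per library without inhibitor and 144 to 244 with ICRF193, where the libraries of the clone were shallow. The 4 pair ratios were 2.38, 2.39, 2.04 and 2.27 (log2 scale, SD 0.17), or 4.10- to 5.24-fold, and the log2 fold change fitted over the pairs was 2.26. CPT gave a log2 fold change of 0.02 (SE 0.16, edgeR adjusted p = 0.93). Of its CPT pairs, both in WT cells lay below 0 (-0.15 and -0.19) and both in the clone above 0 (0.17 and 0.26). The test of that difference between cell lines gave 0.34 (SE 0.29, edgeR adjusted p = 0.56).

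*CYP1B1*, which encodes the CYP1 enzyme known from many tissues outside the liver, had 16.4, 27.6, 21.1 and 18.7 normalized counts without inhibitor. With CPT it had 25.8, 25.5, 28.9 and 27.9, which overlapped with those, and the log2 fold change was 0.35 (SE 0.22, edgeR adjusted p = 0.21). With ICRF193 it had 53.9, 69.8, 52.1 and 31.6. The lowest of these, the clone with TNFα, rests on 20 reads against 11 without inhibitor, and its log2 ratio of 0.76 has a counting interval from -0.37 to 1.97. The other pair ratios were 1.72, 1.34 and 1.31. *CYP1B1* had 11 to 87 reads per library.

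*CYP1A2*, the liver enzyme of the family, had 12 reads in the 12 libraries together and did not pass the filter. It had 1 read in WT cells without inhibitor or TNFα, 4 in each WT library with CPT, 2 in WT cells with ICRF193 at 0 h, 1 in the clone with ICRF193 and TNFα, and 0 in the remaining 7. A count of 0 allows up to 3 reads, or 0.146 to 0.370 RPM (reads scaled to the counted reads of the library) in these 7 libraries, for counting error only. The reads are too few to compare treatments. The hepatocyte markers *ALB*, *APOB* and *TTR* had at most 2 reads in any library.

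*TIPARP*, the feedback gene that encodes the mono-ADP-ribosyltransferase, had 1004, 1068, 916 and 992 normalized counts without inhibitor. The CPT libraries had 280, 256, 285 and 257. The ICRF193 libraries had 2079, 2027, 1901 and 1965. The 3 treatments did not overlap, and the spread within each was small (SD 62.4, 15.1 and 76.8 without inhibitor, with CPT and with ICRF193). Its pair ratios with ICRF193 were 1.05, 0.92, 1.05 and 0.99 on the log2 scale, or 1.90- to 2.08-fold. CPT lowered it by a log2 fold change of -1.89 (SE 0.07, edgeR adjusted p = 9.9e-09), to 0.271-fold, and the CPT pairs ran from -2.06 to -1.69. Its antisense partner *TIPARP-AS1* had 11 to 29 reads with CPT and 4 to 12 otherwise, and the part of these reads in the *TIPARP* counts was not tested.

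*AHRR* encodes the repressor that is itself an AHR target. It had 119, 132, 109 and 134 normalized counts without inhibitor. With CPT it had 82.2, 76.6, 74.1 and 80.3, and with ICRF193 273, 251, 256 and 261. The 3 treatments again did not overlap. The ICRF193 pair ratios were 1.20, 0.93, 1.22 and 0.96 on the log2 scale, or 1.91- to 2.34-fold. CPT lowered *AHRR* by a log2 fold change of -0.65 (SE 0.11, edgeR adjusted p = 0.00078), to 0.637-fold.

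*GPR15* encodes a receptor that guides T cells to the colon, and is a known AHR target in such cells. Without inhibitor it had 32.8, 30.9, 35.8 and 23.8 normalized counts. Its counts with CPT were 15.8, 13.1, 14.1 and 17.5, and with ICRF193 57.4, 57.0, 48.9 and 64.8. The 3 treatments did not overlap, on 10 to 71 reads per library. The ICRF193 pair ratios ran from 0.45 to 1.44 on the log2 scale (SD 0.41). CPT lowered it by a log2 fold change of -1.10 (SE 0.22, edgeR adjusted p = 0.0019), to 0.467-fold. The CPT pair of the clone at 1 h rests on 10 reads against 14, with a counting interval from -1.78 to 0.83. Among 5 lymphocyte markers, *CD3E* had 0 reads in every library, *CD3D* at most 1 and *PTPRC* at most 2, while *CD4* had 1 to 20 and *CD8A* 0 to 13. The summed normalized count of the 5 ranged from 17.1 to 18.7 without inhibitor, from 3.49 to 22.6 with CPT and from 12.8 to 20.5 with ICRF193.

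**Figure D2:**
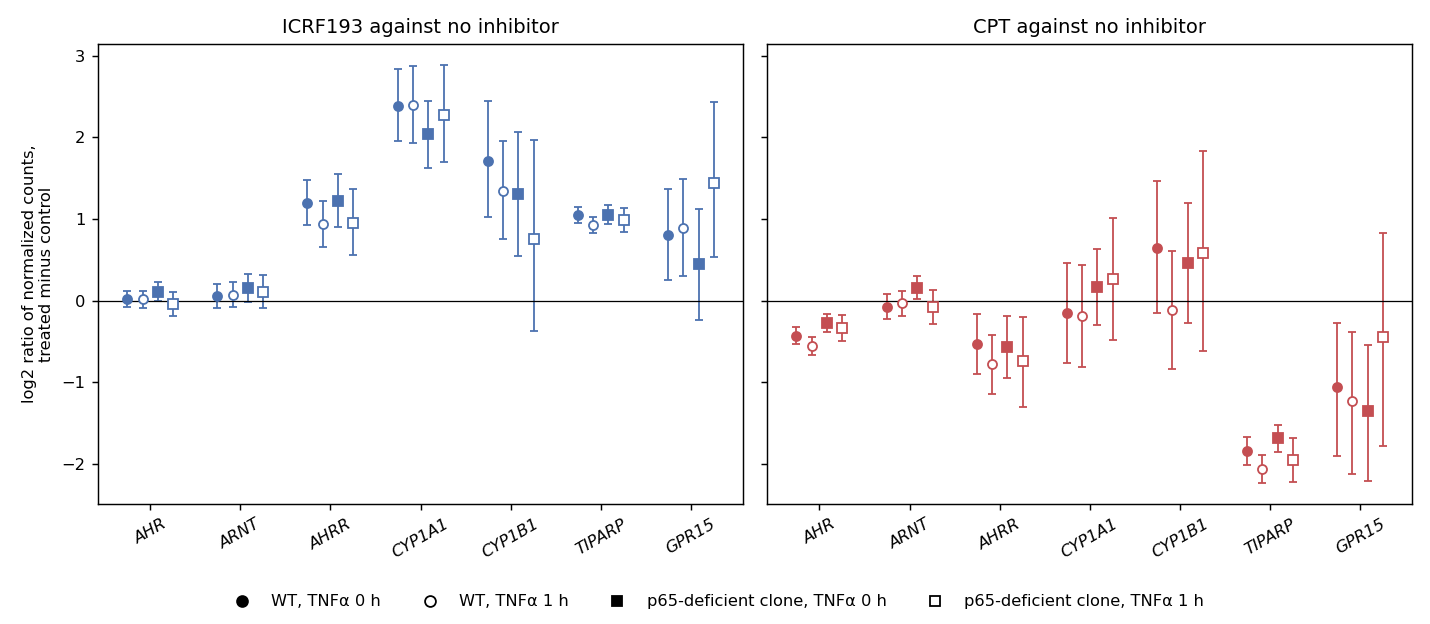
Log2 ratio of normalized counts in each of the 4 pairs of libraries, with ICRF193 (left) or CPT (right) against no inhibitor. Bars are 95% Clopper-Pearson intervals for counting error only, symbols mark cell line and TNFα, and *CYP1A2* is left out for its few reads. *TIPARP*, *AHRR* and *GPR15* lie above 0 in the left panel and below 0 in the right, whereas *CYP1A1* lies at 2.04 to 2.39 on the left and at -0.19 to 0.26 on the right. For *GPR15* an interval of the clone includes 0 in each panel.

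*TIPARP*, *AHRR* and *GPR15* were thus higher with ICRF193 and lowered by CPT, and *CYP1A1* and *CYP1B1*, higher with ICRF193 as well, were not called with CPT. Over the 7 genes, the difference in the CPT effect between the clone and WT cells was called for 0, with 0 at an unadjusted p under 0.05, against 4.52% of all genes (edgeR, 4 pairs). DESeq2 called 0 of the 3 genes for which it gave an adjusted p, and gave none for *AHRR*, *CYP1A1*, *CYP1B1* and *GPR15*. The number lowered by CPT was 4 in every alternative run, including DESeq2 and leaving out each pair. The summed normalized count of 5 fibroblast and endothelial markers was 97.5 to 117 without inhibitor, 124 to 208 with CPT and 88.3 to 106 with ICRF193, most of it *COL1A1*, while *COL1A2*, *DCN* and *PECAM1* had at most 3 reads in any library. With CPT *COL1A1* was raised by a log2 fold change of 0.75 (edgeR adjusted p = 0.0011). The remaining marker *VWF*, with 4 to 26 reads, was lowered by -0.96 (edgeR adjusted p = 0.038). *AHRR* spans 134115 bp, *ARNT* 67064 bp, *AHR* 47500 bp, *TIPARP* 32353 bp, *CYP1B1* 8578 bp, *CYP1A1* 5995 bp and *GPR15* 1252 bp. The relation of span to the CPT effect was not tested.

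Levels between genes were compared as RPKM, reads scaled to the counted reads of the library and to the exonic length in kb. Without inhibitor, *TIPARP* (15.4 ± 0.945, SD, n = 4) and *AHR* (14.2 ± 0.543) were the highest, with overlapping ranges, followed by *ARNT* (8.29 ± 0.843). *GPR15* (1.72 ± 0.255), *AHRR* (1.53 ± 0.166) and *CYP1A1* (1.21 ± 0.272) followed, each overlapping with its neighbour in this order. *CYP1B1* was at 0.284 ± 0.0618 and *CYP1A2* at 0 to 0.0145. With ICRF193, *TIPARP* was at 31.1 ± 0.740, no longer overlapping with *AHR* at 14.6 ± 0.497, and *CYP1A1* at 5.86 ± 0.887, above *AHRR* (3.25 ± 0.150) and *GPR15* (3.23 ± 0.397), which overlapped with each other. With CPT, *AHR* was at 10.8 ± 0.639 and *ARNT* at 8.23 ± 0.708, and both were above *TIPARP* at 4.15 ± 0.233. Below it came *CYP1A1* (1.27 ± 0.443), *AHRR* (0.966 ± 0.0525) and *GPR15* (0.843 ± 0.113), each overlapping with its neighbour in this order. The order of mean levels thus changed between treatments for *TIPARP*, *CYP1A1* and *GPR15*, while *AHR* stayed above *ARNT* under each.

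**Figure D3:**
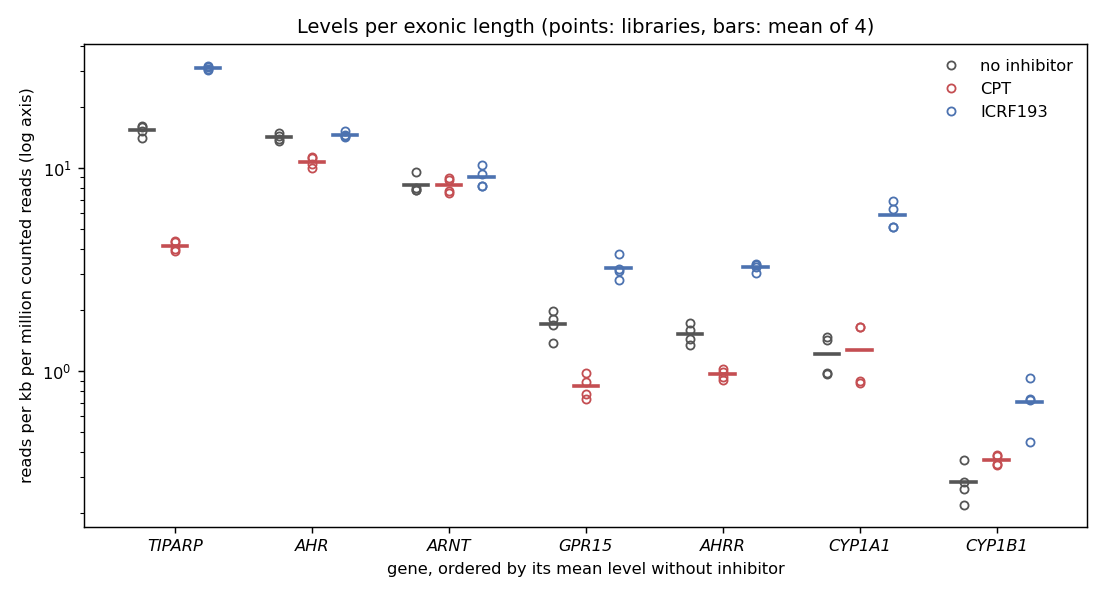
RPKM, reads scaled to the library's counted reads and the exonic length in kb (log axis), for 7 genes, ordered by their mean level without inhibitor, with a point for each of the 4 libraries per inhibitor and a bar for their mean. *TIPARP* stood at 15.4 without inhibitor, 4.15 with CPT and 31.1 with ICRF193, and *AHR* at 14.2, 10.8 and 14.6.

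No effect of TNFα at 1 h passed the test in any of the 7 genes. In WT cells (3 pairs alike in inhibitor), 0 of 7 were called by edgeR at an adjusted p under 0.05, 0 had an unadjusted p under 0.05 and DESeq2 called 0, against 0.642% of 13707 genes called. The log2 fold changes ran from -0.08 for *GPR15* (SE 0.19) to 0.36 for *CYP1B1* (SE 0.20). The study describes CPT as suppressing most TNFα induction in WT cells. An effect lost under CPT would be diluted in these pooled pairs. The *CYP1B1* pair ratios were 0.75 without inhibitor, -0.01 with CPT and 0.37 with ICRF193 (log2 scale), and all 3 counting intervals included 0. With each WT pair left out in turn, that with CPT included, the number called was still 0. In the clone the count was again 0 of 7 by edgeR, with 0 at an unadjusted p under 0.05 and 0 by DESeq2, against 0.498% of 12858 genes, and values ran from -0.34 for *CYP1B1* (SE 0.27) to 0.14 for *AHRR* (SE 0.12). *CYP1B1* thus had values of opposite sign in the cell lines. The difference, clone minus WT, was a log2 value of -0.70 (SE 0.32, unadjusted p = 0.041, edgeR adjusted p = 0.48), so that 0 of 7 genes differed after adjustment and 1 before it, with 0 by DESeq2 and 0.218% of all genes called. Leaving out each pair in turn kept this difference between -0.86 and -0.45.

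In the clone, *CYP1A1* and *ARNT* were higher than in WT cells (edgeR over 6 pairs alike in inhibitor and TNFα), 2 of 7 genes called against 32.1% of 13730 genes in either direction and 15.2% raised. *CYP1A1* had a log2 fold change of 0.51 (SE 0.11, edgeR adjusted p = 0.0037), with pair ratios from 0.25 to 0.91, above 0 in 6 of 6 pairs. The lowest ratios were the 0.25 and 0.33 of the ICRF193 pairs, and their difference from the other ratios was not tested. *ARNT* had a log2 fold change of 0.18 (SE 0.05, edgeR adjusted p = 0.015), above 0 in 6 of 6 pairs. For each, the ranges of the 6 WT and the 6 p65-deficient libraries overlapped, and 8.95% of all genes did not overlap. Depth moves with the clone in 4 of the 6 pairs. In the 2 pairs without a shallow library, *CYP1A1* was at 0.74 (edgeR adjusted p = 0.17) and *ARNT* at 0.15 (edgeR adjusted p = 0.62), with 521 genes called. Without the pairing, the *CYP1A1* value was 0.41 (edgeR adjusted p = 0.74), and without the pair with ICRF193 and TNFα the *ARNT* value was 0.17 (edgeR adjusted p = 0.061). The remaining 5 genes lay between -0.18 (*CYP1B1*) and 0.03 (*AHR*) and were not called.

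**Figure D4:**
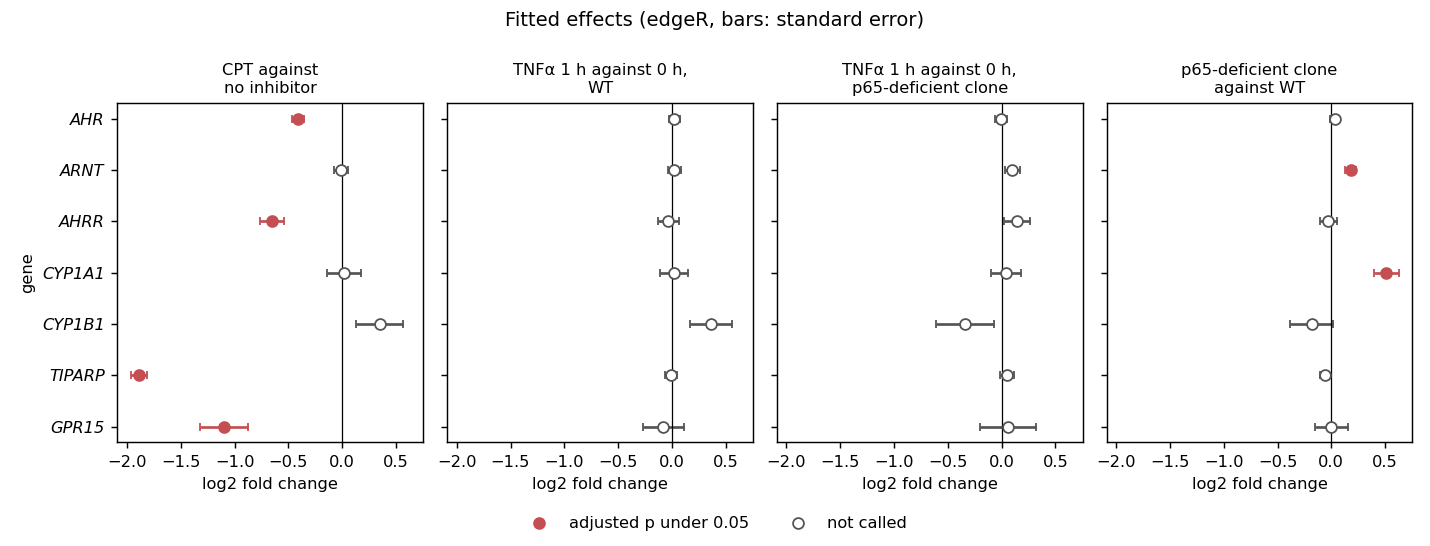
Log2 fold changes fitted by edgeR for 7 genes, with standard errors as bars, for CPT, for TNFα in each cell line and for the clone against WT cells. Filled red points passed an adjusted p of 0.05, which holds for *TIPARP*, *GPR15*, *AHRR* and *AHR* with CPT and for *CYP1A1* and *ARNT* in the clone.

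The AHR pathway has many other genes, of which 89 in 8 lists were followed. With ICRF193, 60 of them passed the filter on low counts, 3 were raised and 2 lowered, and the median log2 fold change was 0.0079 against -0.0012 over all genes. Over all genes 0.587% were raised and 1.58% lowered. The 3 raised were among 12 tested of 24 further AHR targets. The lists, like the members, were chosen with earlier results of these data known, so nothing is read from these shares. *ALDH1A3*, a retinal dehydrogenase gene, rose by a log2 fold change of 0.27 (SE 0.04, edgeR adjusted p = 1e-06), *STC2*, which encodes the secreted glycoprotein stanniocalcin, by 0.21 (SE 0.04, adjusted p = 0.0002) and *NFE2L2*, which encodes NRF2, by 0.17 (SE 0.04, adjusted p = 0.0049). *NQO1*, a classical target of AHR and NRF2, was at 0.01 (SE 0.03, edgeR adjusted p = 0.95). Fitted without the pairing, 0 of the 60 genes were called, and 3 with DESeq2. *NFE2L2* was not called with DESeq2 (adjusted p = 0.22) or without the WT pair at 0 h (edgeR adjusted p = 0.28). Without the WT pair at 1 h *STC2* was not called (edgeR adjusted p = 0.063). Of the other targets, *UGT1A1* and *UGT1A6* had 0 reads in every library, and *ALDH3A1*, *GSTA1*, *GSTA2*, *IDO1* and *SERPINB2* at most 11.

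Of the listed genes of the cytosolic complex that holds the receptor, 5 of 5 were tested and 0 called by edgeR with ICRF193 (1 at an unadjusted p under 0.05), with log2 fold changes from -0.02 to 0.06. Of 8 coactivator genes 1 was called, *NRIP1*, lowered by a log2 fold change of -0.26 (SE 0.03, edgeR adjusted p = 3.9e-07). Of 11 tested PARP family relatives of *TIPARP*, 0 were called by edgeR and 3 had an unadjusted p under 0.05. Of 9 tested hypoxia targets, which use ARNT in another dimer, *ADM* was called, lowered by -0.24 (SE 0.05, edgeR adjusted p = 0.0012). DESeq2 did not call *ADM* (adjusted p = 0.073). Of 10 tested bHLH-PAS relatives, 3 genes of other xenobiotic receptors and 2 of tryptophan enzymes, 0 were called by edgeR, and 1, 0 and 0 had an unadjusted p under 0.05. With CPT, of 63 genes tested in the same 8 lists, 14 were raised and 17 lowered, against 23.2% and 25.1% of all genes, with a median log2 fold change of -0.05 against 0.02 over all genes. Of 10 tested hypoxia targets, 2 were raised and 3 lowered. The largest rise was that of the hypoxia target *CA9* (3.99, edgeR adjusted p = 1.6e-05), which had 0 to 36 reads per library. The xenobiotic receptor gene *NR1I3* followed (1.57, edgeR adjusted p = 0.0052), on 2 to 22 reads. All 5 listed genes of the cytosolic complex were called, 4 of them raised by 0.17 to 0.29, among them *HSP90AA1* and *CDC37*, and *SRC* lowered by -0.80, against 48.3% of all genes called in either direction. Of the raised, *PTGES3* was not called without the pairing (edgeR adjusted p = 0.066) or without the WT pair at 0 h or the clone's at 1 h, and *HSP90AB1* without either pair of the clone. Of 8 coactivators, 5 were lowered, among them *NRIP1* (-1.67), *EP300* (-0.99), *NCOA3* (-0.60) and *CREBBP* (-0.46). Of the 12 tested further targets, 4 were lowered, among them *STC2* (-0.91) and *NFE2L2* (-0.67), and 3 raised, among them *HES1* (1.08), a Notch target as well.

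**Figure D5:**
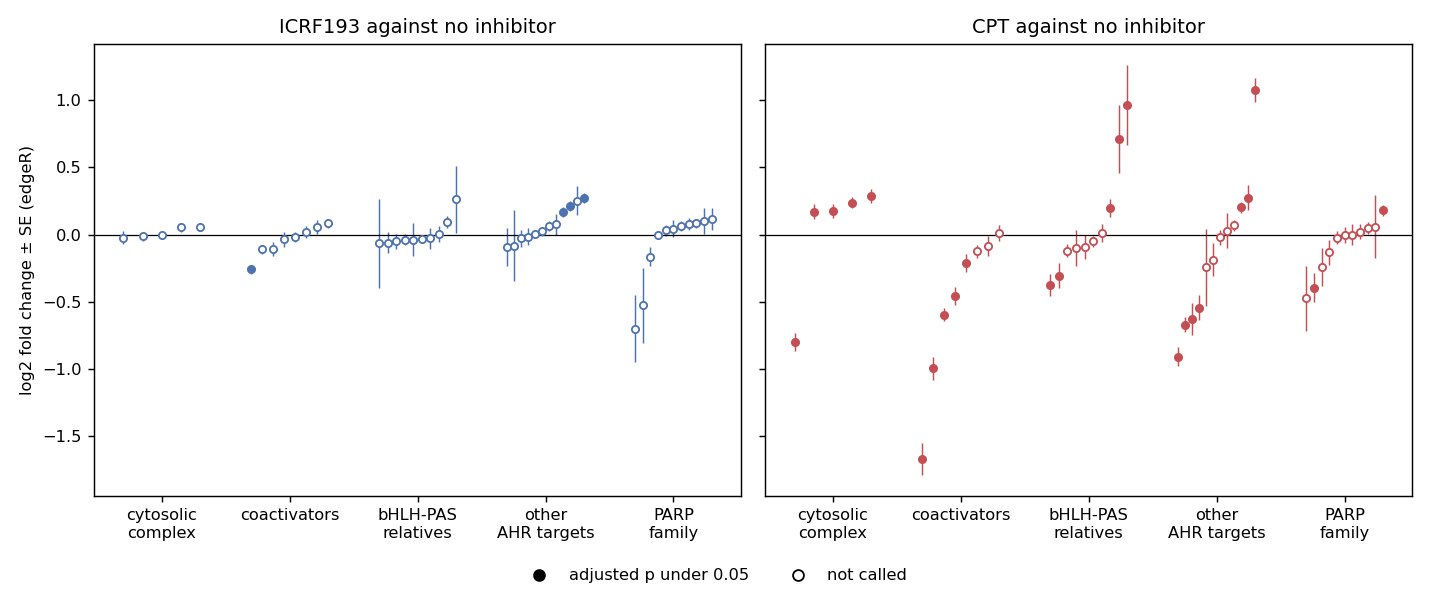
Log2 fold changes with standard errors (edgeR) of genes in 5 of the 8 lists, with ICRF193 (left) and with CPT (right) against no inhibitor, sorted by value within each list, filled where the adjusted p was under 0.05. With ICRF193 *NRIP1* is the only filled point below 0, and with CPT the points run from -1.67 (*NRIP1*) to 1.08 (*HES1*).

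Under TNFα, 1 of the 60 listed genes tested in WT cells was called, against 0.642% of all genes, and 1 of 55 in the clone, against 0.498%. In WT cells *STC2* was raised by a log2 fold change of 0.26 (SE 0.05, edgeR adjusted p = 0.02). In the clone *EREG*, an EGF receptor ligand gene, was raised by 0.23 (SE 0.04, edgeR adjusted p = 0.0033). Neither was called without the pairing or with DESeq2 (adjusted p = 0.28 and 0.091). Without the pair of no inhibitor or that of ICRF193 *STC2* was not called (edgeR adjusted p = 0.57 and 0.86), and without the pair of no inhibitor *EREG* was not (0.40). The *STC2* value was 0.20 in both of these runs. Without the pair of CPT it was 0.35 and *STC2* was called (edgeR adjusted p = 6.3e-11).

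The CPT effect differed between the cell lines for 4 of the 63 listed genes, against 4.52% of all genes. The difference, clone minus WT on the log2 scale, was -0.90 for *ADM* (SE 0.11, edgeR adjusted p = 0.00019), -0.70 for *NRIP1* (SE 0.09, adjusted p = 0.00051) and -0.64 for *EREG* (SE 0.11, adjusted p = 0.0044). It was 0.60 for *VEGFA*, the hypoxia target that encodes an angiogenic growth factor (SE 0.10, edgeR adjusted p = 0.0025). Each was called when any 1 pair was left out, and DESeq2 called 3 of the 4, with an adjusted p of 0.49 for *EREG*. These differences are not the CPT effects themselves. Fitted over both cell lines, the CPT log2 fold change was 0.56 for *ADM*, -1.67 for *NRIP1*, -0.63 for *EREG* and -0.41 for *VEGFA*. DESeq2 did not call that of *ADM* (adjusted p = 0.063).

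In the clone against WT cells, 11 of 60 listed genes were raised and 12 lowered, against 15.2% and 16.9% of all genes. Of the 12 tested further AHR targets, 3 were raised and 5 lowered. *XDH*, which encodes xanthine dehydrogenase, was raised by a log2 fold change of 2.10 (SE 0.23, edgeR adjusted p = 1.2e-05), on 5 to 54 reads per library. *CYP2S1*, another cytochrome P450 gene, was raised by 0.54 and *ALDH1A3* by 0.50, while *CCNG2*, a cyclin G gene, was lowered by -0.47 (edgeR adjusted p = 0.0021). Among 3 tested genes of other xenobiotic receptors and their targets, *ABCB1*, which encodes a drug efflux pump, had 24 to 42 reads in the WT libraries and 0 to 3 in those of the clone (edgeR adjusted p = 4.2e-06). Among the bHLH-PAS relatives, *HIF1A*, another partner of ARNT, was raised by 0.42 (SE 0.03, edgeR adjusted p = 9.1e-07), and *EPAS1* (-0.49), *ARNT2* (-0.83) and *ARNTL* (-0.24) were lowered. In the 2 pairs without a shallow library, *CCNG2*, *EPAS1* and *ARNTL* were not called (edgeR adjusted p = 0.32, 0.052 and 0.36), and without the pairing *ARNTL* was not (0.17). Of the cytosolic complex *HSP90AB1* and *CDC37* were lowered by -0.13 each (edgeR adjusted p = 0.029 and 0.019), and neither was called without the pairing, in the deep pairs or without any 1 of 3 pairs (no inhibitor at 0 h or 1 h, ICRF193 at 0 h), nor *HSP90AB1* without the pair of CPT or of ICRF193 at 1 h.

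When the 2436 genes with at least 20 reads on average over the 12 libraries, CPT included, and the same sign in all 4 pairs were ordered by their ICRF193 log2 fold change, *CYP1A1*, *CYP1B1*, *AHRR* and *TIPARP* held places 1 to 4 and *GPR15* place 6. The places describe the contrast on which the genes were picked. The nearest other genes were *GPR179* at place 5 (0.97, edgeR adjusted p = 0.053), *SNORD102* at 7 (0.78, adjusted p = 0.083) and *CCDC168* at 8 (0.75, adjusted p = 0.27), none of which passed the threshold. In the 8 libraries of this contrast they had 8 to 23, 12 to 25 and 5 to 19 reads. Log2 levels over the 12 libraries were compared for 12616 genes, and the genes examined here were then left out of the ranking. The genes most like *CYP1A1* were *TP53INP1* (Pearson r = 0.84), *FANCD2* (0.84) and *HMBOX1* (0.83). For *TIPARP* they were *TSC22D1* (0.98), *YTHDF3* (0.98) and *PPM1D* (0.97), and for *AHR* *TRIM13*, *RBAK* and *FBXO46* (0.99 each). Among the 7 genes themselves, r was highest between *TIPARP* and *GPR15* (0.96) and between *AHRR* and *GPR15* or *TIPARP* (0.95 each), and lowest between *ARNT* and *CYP1B1* (0.17). *AHR* had an r of 0.93 with *TIPARP* and 0.53 with *CYP1A1*. These values are descriptions over libraries that share 3 treatments and 2 cell lines.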

How the data were processed

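RNA-seq counts of 12 HCT116 libraries were used, with 1 library per condition. Per the study's methods and the submitters' processing notes, the authors trimmed reads with trimmomatic, mapped them to hg19 (the notes also list STAR), and deposited raw counts of reads on the exons of 26364 gene symbols from featureCounts 1.5.0, per the file headers without a strand option, although the library kit was stranded. The deposited exonic length, another kind of value, was used for levels per kb.

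The members and lists were chosen with earlier results of these data known. A gene of a list is not reported here and was left out of the list counts. Normalized counts are reads divided by DESeq2 size factors over the 12 libraries. Because no condition has a replicate, matched pairs stood in for replicates: edgeR 4.0.16 (TMM, quasi-likelihood test, pair as a block, filterByExpr, Benjamini-Hochberg adjustment over all genes tested, adjusted p under 0.05). Each standard error is the log2 fold change over the square root of its F statistic, and p-values measure the spread between pairs, which differ in treatment or cell line. Pair ratios carry 95% Clopper-Pearson intervals for counting error only. Reads are not independent molecules. The fits were tested on simulated data.

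Named genes were the 8 members, up to 4 called genes of each list and comparison, *NQO1* and 7 targets with few reads (chosen after their values were seen), genes sharing exon with a member, the 3 genes most correlated with *CYP1A1*, *TIPARP* and *AHR* (log2 CPM, prior count 2, mean of at least 20 reads), the 3 non-members highest with ICRF193, and *RELA*. Alternatives were other scaling, filters, DESeq2 1.42.0, no pairing, leaving out each pair and, for the clone, the deep pairs. Tables and figures were made with Python 3.11.15, pandas 2.3.3, scipy 1.17.1, numpy 2.4.6 and matplotlib 3.10.9, and fits with R 4.3.3 and limma 3.58.1. Promoter windows came from RefSeq (GRCh38.p14) and were not placed on hg19.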

Additional observations from a re-analysis of the deposited data

Results flagged for a closer look

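The CPT effect on *CYP1A1* stood out because its direction differed between the cell lines in every pair. Both WT pairs lay below 0 (log2 ratios of -0.15 and -0.19) and both pairs of the p65-deficient clone above 0 (0.17 and 0.26), a difference of the means, WT minus clone, of -0.38. All 4 counting intervals include 0, on 30 to 80 reads per library. The test of the difference did not pass the threshold (clone minus WT 0.34, SE 0.29, edgeR adjusted p = 0.56, range over the alternatives 0.52 to 0.81, leaving out DESeq2, which gave no adjusted p).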

How the results depend on the processing

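Every condition has 1 library, so matched pairs carry the tests, and a response unlike in the pairs only partly widens their error. *CYP1B1* and *GPR15* had at most 87 reads per library, which limits their precision, and *CYP1A2* could not be compared. CPT lowered *TIPARP*, *GPR15*, *AHRR* and *AHR* under every alternative run. Of *AHR*, *ARNT*, *AHRR*, *CYP1A1*, *CYP1B1*, *TIPARP* and *GPR15*, 0 were called for TNFα and for both differences between cell lines under every alternative, although DESeq2 gave no adjusted p for 4 of the 7 in the CPT difference. In the clone the number was 1 without the pairing, 0 in the deep pairs and 1 to 2 when each pair was left out.

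Counts over all genes moved more. With DESeq2 they were 148 for the CPT difference between cell lines (632 in the fits reported), 25 for TNFα in WT cells (88), 2 for TNFα in the clone (64), 10 for the TNFα difference (30) and 83 for ICRF193 (296), with 3 other AHR pathway genes called (5). Without the replicate block, that is the pairing, they were 0 for TNFα in each cell line, 2043 for the clone (4408) and 3 for ICRF193, with 0 other pathway genes called. With no filter on low counts they were 1095, 143 and 132 for the CPT difference, TNFα in the clone and the TNFα difference. Total-count scaling gave 39 for TNFα in the clone and the deep pairs 521 for the clone. Total-count scaling also changed the split of raised and lowered genes, to 2436 and 1802 for the clone (2092 and 2316), 28 and 11 for TNFα in the clone (36 and 28, and 21 and 24 with DESeq2 size factors) and 100 and 163 for ICRF193 (80 and 216). Leaving out each pair gave 221 to 1606 for the CPT difference, 60 to 372 for TNFα in WT cells, 14 to 581 in the clone (581 without the ICRF193 pair), 5 to 76 for the TNFα difference and 148 to 322 for ICRF193. The cause was not tested.

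Values that changed sign were all of genes not called. For CPT, *CYP1A1* was -0.0071 with no filter and -0.064 to 0.082 when pairs were left out, and *ARNT* -0.078 to 0.011. For the CPT difference, *AHRR* was -0.014 with total-count scaling, and leaving out pairs gave -0.12 to 0.13 for *AHRR*, -0.18 to 0.58 for *CYP1B1*, -0.19 to 0.68 for *GPR15*, -0.040 to 0.23 for *ARNT* and -0.014 to 0.29 for *TIPARP*. For TNFα in WT cells, leaving out pairs gave -0.068 to 0.014 for *TIPARP* and -0.11 to 0.043 for *AHRR*. In the clone, *AHR* was 0.020 with total-count scaling, and leaving out pairs gave -0.047 to 0.036 for *AHR*, -0.0073 to 0.090 for *TIPARP*, -0.067 to 0.079 for *CYP1A1* and -0.26 to 0.38 for *GPR15*. For the TNFα difference, *AHR* was 0.012 with total-count scaling and *CYP1A1* -0.0056 with DESeq2, and leaving out pairs gave -0.073 to 0.011 for *AHR*, -0.086 to 0.059 for *CYP1A1* and -0.18 to 0.46 for *GPR15*. For the clone, *GPR15* was -0.0058 with DESeq2 size factors, -0.0055 with no filter, -0.0099 with DESeq2 and -0.019 without the pairing, *AHRR* 0.0039 with total-count scaling and *CYP1B1* 0.26 in the deep pairs, and leaving out pairs gave -0.060 to 0.057 for *GPR15* and -0.28 to 0.042 for *CYP1B1*.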
